A study of Rattus norvegicus with 4 samples.

Results

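Cells must pass a commitment point in late G1 phase before they copy their DNA, and the genes described here encode the machinery of that switch: the E cyclins Ccne1 and Ccne2, their kinase Cdk2, the kinase Wee1 and the phosphatase Cdc25a that act on Cdk2, the activator E2Fs E2f1, E2f2 and E2f3, and the repressor E2Fs E2f7 and E2f8. The members were chosen by gene name, 10 in all, and 9 of them are rows of the deposited table of 15172 genes. E2f1 was not analysed here. RNA was sequenced from INS-1 832/13, a rat insulinoma line used as a model of the β-cell, 36 h after transfection with a pool of siRNAs against Tbk1 (siTbk1, 2 libraries) or with a non-targeting siRNA (siScramble, control, 2 libraries). Control and depleted cells were therefore both transfected, and each group comes from the same established line. The libraries carry the replicate numbers 2 and 3 in either group. The labels do not say whether these were separate cultures, so p-values measure only the spread between these samples, estimated in part from other genes.

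In G1, D cyclins with Cdk4 or Cdk6 begin to phosphorylate the retinoblastoma family (pocket) proteins, which frees activator E2Fs to transcribe S phase genes. Cyclin E, itself an E2F product, then binds Cdk2 and completes the phosphorylation, which makes the switch self-reinforcing. Wee1 holds cyclin-dependent kinases inactive by tyrosine phosphorylation and Cdc25 phosphatases remove that mark, while E2f7 and E2f8 shut E2F targets down again later in S phase. Adult β-cells divide rarely, whereas insulinoma lines cycle in culture.

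The deposited values are estimated read counts, with totals between 38428926 and 47759013 per library, and the 9 genes had between 925 and 5353 counts in every library. Values are given in CPM, the usual unit of counts relative to the library total, after TMM scaling, which corrects for library depth and composition. Groups were compared with edgeR's quasi-likelihood test over all 13953 genes that passed a filter on low counts, with Benjamini-Hochberg adjusted p-values. All 9 genes passed this filter. The limits for a call were an adjusted p under 0.05 and, in either direction, a change of 1.5-fold or more. The siRNA target was depleted: Tbk1 was at 53.7 and 52.5 CPM in siScramble and at 11.8 and 13.3 CPM in siTbk1, a log2 fold change of −2.08 (standard error 0.076, adjusted p = 3.7e-08). β-cell identity was checked with 9 marker genes, all of which were detected. At an adjusted p under 0.05 alone 3 of them were higher and 5 lower with siTbk1 (24.4% and 24.8% of all genes). By the full limits none was called higher and 2 were called lower, against 4.81% and 6.18% of all genes. The called markers were Ins1 (log2 fold change −0.64, adjusted p = 5.7e-05) and Ins2 (−0.67, adjusted p = 7.8e-05). The summed level of the 9 markers was between 13283 and 13986 CPM in siScramble and between 9082 and 10360 CPM in siTbk1, most of it Ins1. The other 8 summed to between 2894 and 2900 CPM and between 2838 and 2840 CPM. Of 17 markers of 8 other cell types, 4 passed the filter. Of these, Sox9 and Cd68 lay below 1 CPM and Pdgfra between 5.35 and 8.95 CPM in every library. The α-cell hormone gene Gcg was at 1389 and 1313 CPM in siScramble and at 815 and 878 CPM in siTbk1. The markers without a value were not analysed here, and the part of these marker changes in the results was not tested.

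Promoter sequences from RefSeq (build GRCr8, from 250 bases before to 50 after the annotated start) matched 5 of the members: Ccne1, Cdk2, Cdc25a, E2f3 and E2f7. The promoters of the other members, Ccne2 and Wee1 among them, were not analysed here. The 5 sequences were searched on both strands for the E2F motif in its 4 forms TTTCCCGC, TTTCGCGC, TTTGCCGC and TTTGGCGC. The promoters of Cdc25a and E2f3 hold it, against 2.25% of 27457 rat promoters of this length and 4.02% of the 10267 that belong to genes of the count table. These are shown because they are the members with a match, and the Ccne1 promoter is shown beside them as that of the E cyclin whose level did not pass the test. Capitals mark the E2F motif.
Cdc25a, chr8:118742798-118743097, plus strand: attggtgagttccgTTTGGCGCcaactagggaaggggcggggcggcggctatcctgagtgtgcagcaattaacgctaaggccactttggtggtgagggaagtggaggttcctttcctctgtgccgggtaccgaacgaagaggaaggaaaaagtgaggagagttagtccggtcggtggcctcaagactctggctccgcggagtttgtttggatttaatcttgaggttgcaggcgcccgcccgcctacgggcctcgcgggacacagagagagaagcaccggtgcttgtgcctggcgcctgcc
E2f3, chr17:34810166-34810465, plus strand: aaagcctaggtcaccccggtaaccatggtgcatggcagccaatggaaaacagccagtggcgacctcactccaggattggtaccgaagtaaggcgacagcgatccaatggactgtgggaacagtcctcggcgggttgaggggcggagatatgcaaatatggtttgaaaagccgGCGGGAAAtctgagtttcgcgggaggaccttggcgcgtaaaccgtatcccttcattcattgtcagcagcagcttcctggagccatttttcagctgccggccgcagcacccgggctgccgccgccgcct
Ccne1, chr1:99927860-99928159, minus strand: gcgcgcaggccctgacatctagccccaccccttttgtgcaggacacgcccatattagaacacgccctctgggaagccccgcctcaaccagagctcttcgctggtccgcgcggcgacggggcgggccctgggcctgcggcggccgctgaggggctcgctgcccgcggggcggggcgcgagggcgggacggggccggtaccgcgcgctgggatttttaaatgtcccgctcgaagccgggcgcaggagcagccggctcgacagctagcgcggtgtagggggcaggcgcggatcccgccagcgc
The match in Cdc25a is TTTGGCGC at bases 15 to 22 of the printed run, and that in E2f3 is TTTCCCGC on the opposite strand, read here as GCGGGAAA at bases 173 to 180. E2f3 also holds the cell cycle homology motif TTTGAA at bases 161 to 166, which does not overlap the E2F match. On either strand 18.1% of the 27457 promoters hold it, and 11.2% of the 10267 that belong to genes of the count table. No full match to any of the 4 forms of the E2F motif was found in the Ccne1, Cdk2 and E2f7 windows, which says nothing about binding.

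Of the 9 genes, 2 were called higher in siTbk1-treated cells, Ccne2 and Wee1, and none was called lower. Over all 13953 genes, 11.0% were called, 4.81% as higher and 6.18% as lower. The paper on these data had already listed Ccne2 and Wee1 among its increased genes, and had reported higher E2f2 by quantitative PCR. The members were chosen with earlier results known. The count of 2 among 9 is therefore not independent of the choice and is no measure of enrichment. The same holds for the other counts and the median of the 9 genes given next. Without the fold change limit, at an adjusted p under 0.05 alone, 5 of the 9 genes were higher (Ccne2, Wee1, Cdk2, E2f2 and E2f3) and E2f8 was lower, where 24.4% of all genes were higher and 24.8% lower by the same rule. Ccne1, Cdc25a and E2f7 did not pass it. The median log2 fold change of the 9 genes was 0.23, and that of all tested genes was 0.0071. Both siTbk1 libraries lay above both siScramble libraries for 6 of the 9 genes and below them for 2, against 38.7% and 37.9% of all genes. Because each library is a bulk culture, a change in mRNA per cell and a change in the share of cells in a phase of the cycle cannot be told apart.

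**Figure D1:**
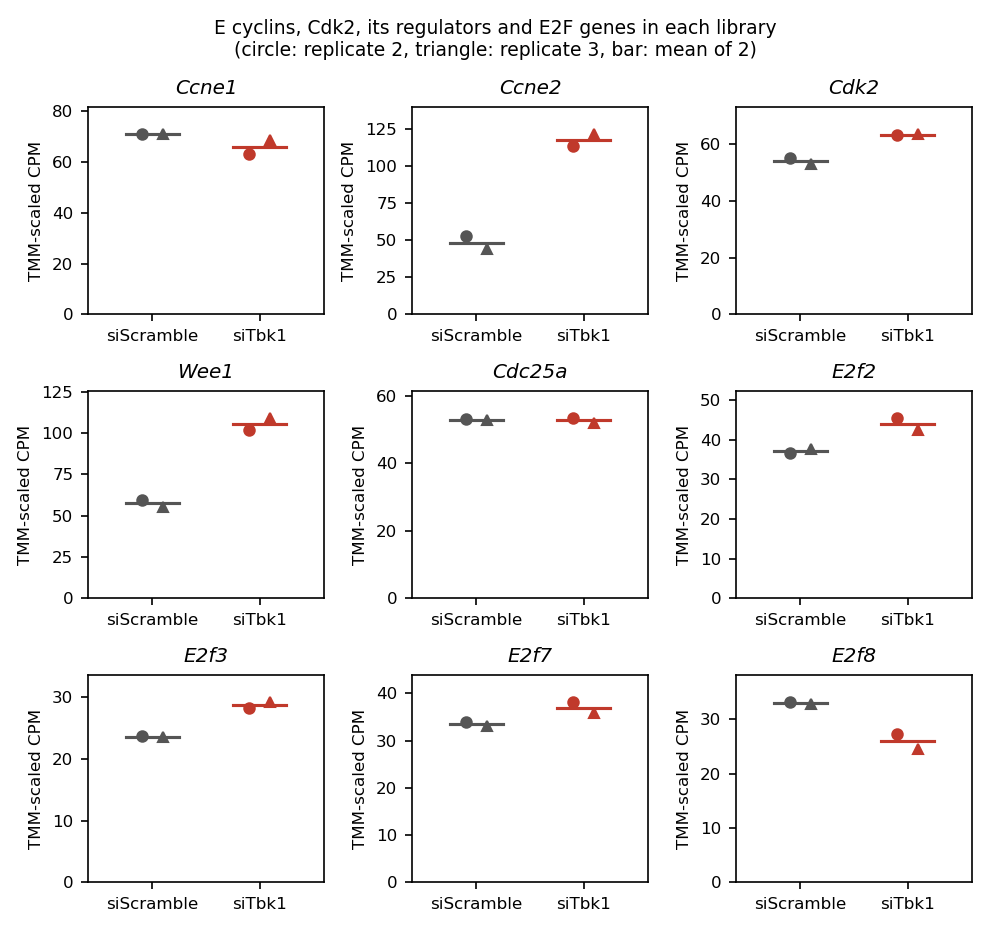
TMM-scaled CPM (vertical axes, from 0) of the 9 genes in the 2 siScramble and 2 siTbk1 libraries; circles are replicate 2, triangles replicate 3 and bars the mean of each group. Ccne2 and Wee1 show the widest gaps, Cdc25a overlaps between the groups, and Ccne1 and E2f8 are the genes with both siTbk1 libraries below both controls.

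Of the E cyclins, the regulatory subunits of Cdk2, Ccne2 rose and Ccne1 did not pass the test. Ccne2, the gene for cyclin E2 (chromosome 5, 24434872 to 24446407 on rn6, the build in the submitters' processing notes), was at 52.7 and 44.4 CPM in siScramble replicates 2 and 3 and at 113.8 and 121.8 CPM in siTbk1 replicates 2 and 3. The lower siTbk1 library was thus far above the higher control library, although the control libraries differed more from each other for this gene than for any of the other 8. The mean rose from 48.5 ± 5.90 to 117.8 ± 5.64 CPM (SD, n = 2 each), a fold change of 2.42 and a log2 fold change of 1.28 (standard error 0.077, 95% interval 1.11 to 1.44, adjusted p = 4.6e-07). By log2 fold change Ccne2 ranked 94 among the 13953 genes, counted from the highest. Ccne1, encoding cyclin E1 (chromosome 1, 94485832 to 94494981), was at 71.1 and 70.9 CPM in siScramble and at 63.1 and 68.9 CPM in siTbk1. Both siTbk1 libraries lay just below the controls, and the log2 fold change of −0.11 (standard error 0.062, 95% interval −0.24 to 0.027, adjusted p = 0.17) did not pass the test.

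Cdk2, the kinase that both E cyclins activate (chromosome 7, 3124954 to 3132458), was at 55.1 and 52.8 CPM in siScramble and at 63.1 and 63.5 CPM in siTbk1. Its libraries did not overlap between the groups, and its log2 fold change of 0.23 (standard error 0.059, 95% interval 0.10 to 0.36, adjusted p = 0.0063) stayed short of the fold change limit. Wee1, the inhibitory kinase (chromosome 1, 174767960 to 174786362), was at 59.6 and 55.4 CPM in siScramble and at 102.0 and 109.0 CPM in siTbk1. Both siTbk1 libraries were far above both controls. The mean rose from 57.5 ± 2.94 to 105.5 ± 4.94 CPM (SD, n = 2 each), a fold change of 1.83 and a log2 fold change of 0.87 (standard error 0.062, 95% interval 0.74 to 1.01, adjusted p = 1.5e-06), which ranked 349 among all genes. Cdc25a, the phosphatase that opposes Wee1 (chromosome 8, 117953444 to 117971520), was at 53.2 and 52.8 CPM in siScramble and at 53.4 and 52.0 CPM in siTbk1. The groups overlapped, and the log2 fold change was −0.0072 (standard error 0.059, 95% interval −0.13 to 0.12, adjusted p = 0.93).

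Among the E2Fs none was called: at an adjusted p under 0.05 alone the activators E2f2 and E2f3 were higher, the repressor E2f8 was lower, and E2f7 did not pass. E2f2 (chromosome 5, 154522119 to 154540266) was at 36.6 and 37.6 CPM in siScramble and at 45.4 and 42.3 CPM in siTbk1, a log2 fold change of 0.24 (standard error 0.065, 95% interval 0.10 to 0.38, adjusted p = 0.0080). Without siTbk1 replicate 2, the higher of the treated libraries, it was 0.18 with an adjusted p of 0.10. E2f3 (chromosome 17, 36334147 to 36408832) was at 23.7 and 23.5 CPM in siScramble and at 28.2 and 29.2 CPM in siTbk1, a log2 fold change of 0.28 (standard error 0.068, 95% interval 0.14 to 0.43, adjusted p = 0.0045). For both activators every siTbk1 library exceeded every control library. E2f8 (chromosome 1, 104187100 to 104202592) was at 33.2 and 32.9 CPM in siScramble and at 27.4 and 24.5 CPM in siTbk1, a log2 fold change of −0.35 (standard error 0.073, 95% interval −0.51 to −0.19, adjusted p = 0.0019). It was the member with the lowest log2 fold change, and its treated libraries differed from each other by more than its control libraries did. E2f7 (chromosome 7, 53275676 to 53316482), the other atypical repressor, was at 34.0 and 33.0 CPM in siScramble and at 38.2 and 35.8 CPM in siTbk1. Its log2 fold change was 0.14 (standard error 0.066, 95% interval −0.00067 to 0.29, adjusted p = 0.092), on the opposite side of 0 from that of E2f8 and not past the test.

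**Figure D2:**
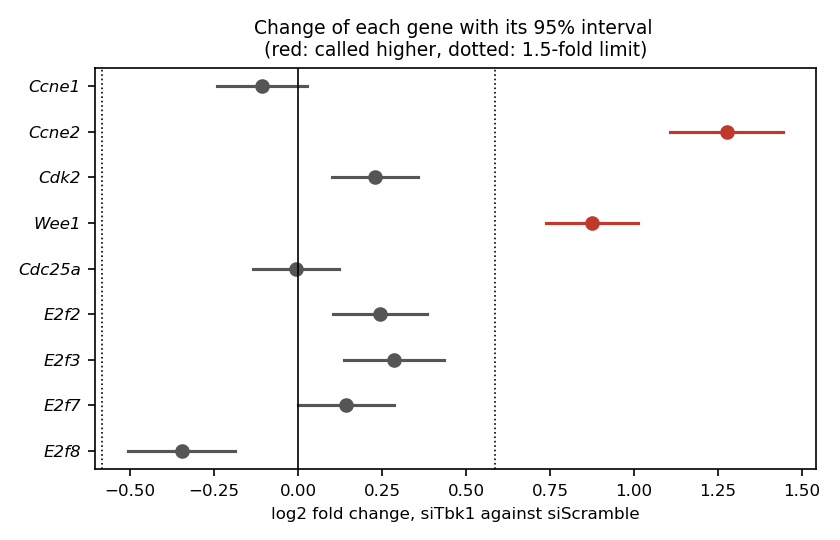
Log2 fold change of siTbk1 against siScramble (horizontal axis) for each of the 9 genes, with points for the edgeR estimate, lines for its 95% interval and dotted lines at a fold change of 1.5. The intervals of Ccne2 (1.11 to 1.44) and Wee1 (0.74 to 1.01) lie wholly above the limit, those of Cdk2, E2f2 and E2f3 lie above 0 and below the limit, and that of E2f8 lies below 0.

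Ratios of counts within a library do not depend on the scaling between libraries and give the balance between partners. They are not corrected for transcript length, so only their change between the groups is read. The ratio of Ccne2 to Ccne1 counts was 0.742 and 0.625 in siScramble and 1.80 and 1.77 in siTbk1, a 2.62-fold higher geometric mean, or 1.39 on the log2 scale against a spread of 0.25 between the control libraries. The ratio was higher in every siTbk1 library than in every control library. The ratio of Wee1 to Cdc25a counts was 1.12 and 1.05 in siScramble and 1.91 and 2.10 in siTbk1, a log2 difference of 0.88 against spreads of 0.094 and 0.13 within the groups. The ratio of repressor counts (E2f7 and E2f8) to activator counts (E2f2 and E2f3) was 1.12 and 1.08 in siScramble and 0.891 and 0.843 in siTbk1, a log2 difference of −0.34 against spreads of 0.048 and 0.079. The exact permutation test, two-sided, gave p = 0.333 for each of the 3 ratios (0.333 after Benjamini-Hochberg adjustment over the 3), which is the smallest value that 2 against 2 samples allow, so these differences cannot pass a threshold by that test.

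**Figure D3:**
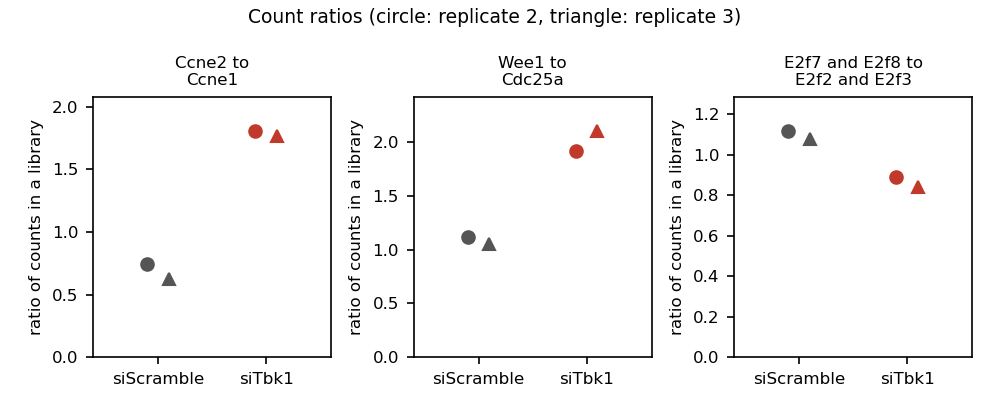
Ratio of read counts within each library (vertical axes, from 0) for Ccne2 to Ccne1, Wee1 to Cdc25a, and the repressor to the activator E2Fs; circles are replicate 2 and triangles replicate 3. The first 2 ratios are higher in both siTbk1 libraries (1.80 and 1.77, 1.91 and 2.10) and the third is lower (0.891 and 0.843).

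The wider pathway was followed with 6 lists that hold 70 further genes, of which 67 were tested. Of these 67, 3 were called higher and 1 was called lower, against 4.81% and 6.18% of all genes. At an adjusted p under 0.05 alone 27 were higher and 12 lower, against 24.4% and 24.8%, and these shares of all genes are the background for the counts of each list given next. Among the called genes are 2 pocket proteins, which bind E2Fs and keep them silent. Rb1, the retinoblastoma gene, was at 20.5 and 18.9 CPM in siScramble and at 35.4 and 36.7 CPM in siTbk1, a log2 fold change of 0.87 (standard error 0.072, adjusted p = 4.3e-06). Rbl1, encoding p107, was at 19.6 and 18.6 CPM in siScramble and at 28.7 and 30.2 CPM in siTbk1, a log2 fold change of 0.62 (standard error 0.073, adjusted p = 4.1e-05). The Rbl1 call was lost with library size alone (log2 fold change 0.57), with glmTreat, which tests against the fold change limit itself, and without siTbk1 replicate 3. In the list of other E2F and pocket protein genes, 5 of 8 were higher and 2 were lower at an adjusted p under 0.05 (24.4% and 24.8% of all genes). The median log2 fold change of that list was 0.35. Named after their values were seen, Rbl2 (0.31), E2f6 (0.38) and the E2F partner Tfdp2 (0.45) were the other genes higher by that rule, and E2f4 (−0.16) and the partner Tfdp1 (−0.22) were the lower ones. Tfdp1 has fractional counts, which arise where reads are split between similar genes and make a value uncertain, and genes like it are marked below as holding split reads.

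Among 17 other regulators of cyclin E and Cdk2, none was called, 7 were higher and 1 was lower at an adjusted p under 0.05 (24.4% and 24.8% of all genes), and the median log2 fold change was 0.14. With library size alone 7 were higher and 3 lower. The largest changes were in Pkmyt1, a kinase related to Wee1, with a log2 fold change of −0.52 (adjusted p = 0.0074), and in Cul1, the scaffold of the SCF ubiquitin ligase that degrades cyclin E, with 0.44 (adjusted p = 0.00011) from counts that hold split reads. Pkmyt1 was at 12.5 and 16.6 CPM in siScramble and at 11.1 and 8.98 CPM in siTbk1, so that Wee1 and its relative lay on opposite sides of 0. In the D cyclin arm of 5 genes, Cdk6 alone was called, at 0.562 and 0.555 CPM in siScramble and 0.893 and 1.14 CPM in siTbk1, from 22 to 43 counts per library (log2 fold change 0.85, standard error 0.29, adjusted p = 0.031). That call was lost with DESeq2, with glmTreat and without siScramble replicate 2, siScramble replicate 3 or siTbk1 replicate 3. Ccnd1 (0.45), Ccnd2 (−0.066), Ccnd3 (0.12) and Cdk4 (−0.025), given here as log2 fold changes and named after their values were seen, did not pass the test.

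Of the 25 E2F target genes of S phase entry, 7 were higher, 7 were lower and 11 were neither at an adjusted p under 0.05, near the 24.4% and 24.8% of all genes, and the median log2 fold change was 0.0088. The counts were 6 higher and 7 lower with DESeq2 size factors and 5 higher and 8 lower with library size alone. Cdt1, which loads the replicative helicase onto origins, was the gene called lower, at 19.7 and 21.1 CPM in siScramble and at 14.1 and 11.9 CPM in siTbk1 (log2 fold change −0.65, standard error 0.094, adjusted p = 0.00016). The Cdt1 call was lost without siTbk1 replicate 3 and with glmTreat. Named after their values were seen, the helicase subunits Mcm2 (−0.36), Mcm3 (−0.20), Mcm5 (−0.22, with split reads), Mcm6 (−0.14) and Mcm7 (−0.13) were lower by that rule, also with library size alone and with DESeq2 size factors. In the main edgeR fit Mcm6 (adjusted p = 0.0419) and Mcm7 (adjusted p = 0.0498) lay close to the limit of 0.05. Mcm4 (0.084, with split reads) was not past the test. The higher genes included Ccna2, the S phase cyclin that succeeds cyclin E (0.40, with split reads), the DNA polymerase subunit Pola1 (0.37, with split reads) and the thymidylate synthase gene Tyms (0.34), likewise named after their values were seen. These 3 were higher under both of those scalings too.

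Of 6 genes of the MuvB and B-Myb complexes, which regulate cell cycle promoters together with pocket proteins and E2Fs, none was called, 3 were higher and 1 was lower at an adjusted p under 0.05 (24.4% and 24.8% of all genes). Lin9 (log2 fold change 0.47, adjusted p = 0.0021, with split reads) and Lin37 (−0.43, adjusted p = 0.0038) showed the largest changes, in opposite directions. Of 6 proliferation markers none was called, 4 were higher and 1 was lower by that rule, against the same shares of all genes, with a median log2 fold change of 0.30. Mki67, encoding the Ki67 antigen, was at 535 and 518 CPM in siScramble and at 688 and 735 CPM in siTbk1, a log2 fold change of 0.43 (standard error 0.054, adjusted p = 5.9e-05). Bub1, a mitotic checkpoint kinase gene, had a log2 fold change of 0.39 (adjusted p = 0.00027).

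**Figure D4:**
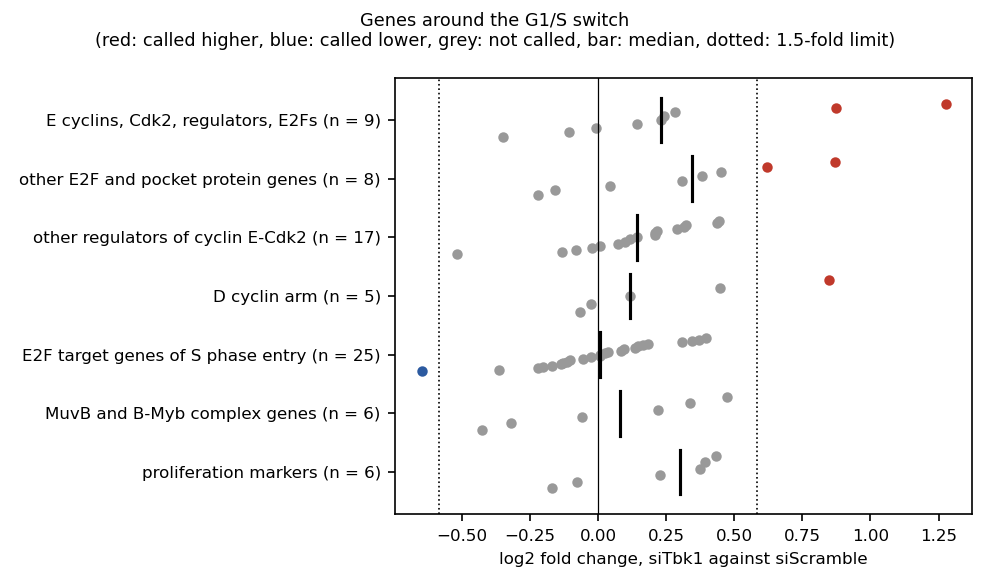
Log2 fold change of siTbk1 against siScramble (horizontal axis) for each tested gene of the switch and of the 6 pathway lists; red points were called higher, the blue point lower, grey points were not called, black bars are medians and dotted lines mark a fold change of 1.5. Ccne2 and Wee1 stand beyond the limit together with Rb1, Rbl1 and Cdk6, the median of the E2F targets is 0.0088, and the blue point is Cdt1 at −0.65.

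The genes whose profile over the 4 libraries was most like that of a called member were found by the Euclidean distance between log2 CPM values centred on their mean, among the 9130 genes that averaged 10 CPM or more. Nearest to Ccne2 were Tnfsf10 (distance 0.086), which encodes the death ligand TRAIL, Fgf1 (0.11), a growth factor, and Rhoq (0.12, with split reads), a small GTPase. Their log2 fold changes were 1.19, 1.34 and 1.37. Nearest to Wee1 were Oxct1 (distance 0.017), an enzyme of ketone body use, Tipinl1 (0.023, with split reads), and Rb1 (0.033), with log2 fold changes of 0.88, 0.87 and 0.87. With 4 libraries in 2 groups, this distance depends mainly on the size of the difference between the groups.

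The members are spread over 5 chromosomes: on rn6, Ccne1, Wee1 and E2f8 lie on chromosome 1, Ccne2 and E2f2 lie on chromosome 5, and Cdk2 and E2f7 lie on chromosome 7. Cdc25a lies on chromosome 8 and E2f3 on chromosome 17. The genomic span from the listed start to the listed end, introns included, was 11.5 kb for Ccne2 and 18.4 kb for Wee1, both below the median of 36.0 kb over all genes called higher and of 20.1 kb over all genes tested. Over all genes called lower the median was 10.6 kb. E2f3 had the longest span of the members, at 74.7 kb, and Cdk2 the shortest, at 7.50 kb. None of the 9 genes had counts further than 0.01 from a whole number in any library, the mark used here for reads split between similar genes, which 25.8% of all rows carry. E2f3 had fractional counts that did not pass this limit, 929.999 in siScramble replicate 3 and 1327.99 in siTbk1 replicate 2.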

How the data were processed

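The deposited table holds estimated counts, 1 row per gene, that the authors made from 4 stranded poly(A) RNA libraries and did not scale between samples. The submitters' processing notes name STAR 2.6.1d, Partek and the build rn6, and the annotation and counting settings are not given in the sources used here. Depth was between 38428926 and 47759013 counts per library. Counts were rounded, genes were filtered with filterByExpr of edgeR 4.0.16 (minimum count 10, 13953 genes kept), libraries were scaled with TMM factors, and groups taken from the labels were compared in a quasi-likelihood fit (glmQLFit, glmQLFTest) on treatment alone, followed by Benjamini-Hochberg adjustment. Calls needed an adjusted p under 0.05 and a 1.5-fold change. Standard errors were derived from the F statistics, and 95% intervals from the fit's degrees of freedom. That fit shares information on spread between genes (median prior degrees of freedom 10.1). Errors, intervals and p-values of a gene therefore do not rest on its own 4 values alone.

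The members and lists were chosen with earlier results of these data known. By rule, the named genes were all members, Tbk1, the called genes of each list or else its 2 largest changes, and the 3 nearest profiles to Ccne2 and Wee1. Other list genes were named after their values were seen, as marked in the text, and cell type markers were named for the check of identity. The ratio of E2F genes was planned with E2f1 and was computed without it. Transcript lengths were not used here, so levels are not compared between genes. Scripts were tested on simulated data. R 4.3.3, DESeq2 1.42.0, Python 3.11.15 and matplotlib 3.10.9 were used. Alternatives were a replicate block, DESeq2, its size factors in edgeR, library size alone, other filters, no fold change limit, glmTreat, and leaving out each sample.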

Additional observations from a re-analysis of the deposited data

How the results depend on the processing

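Ccne2 and Wee1 were called higher in all 12 of the other fits and limits named above, with log2 fold changes between 1.16 and 1.41 and between 0.82 and 0.93. Without the fold change limit, 3405 genes of the whole table were higher and 3459 lower, with 5 and 1 of the members and 27 and 12 of the pathway list genes. That setting is the main fit with the limit dropped, so every call of the main fit stood in it by construction. With glmTreat against a fold change of 1.5, 163 and 101 genes were called, with 2 and 0 of the members and 1 and 0 of the list genes. Leaving out each sample in turn gave between 552 and 756 higher and between 574 (without siScramble replicate 3) and 1159 lower calls against 671 and 862, between 1 and 3 list genes called higher (1 without siTbk1 replicate 3), and between 0 (without siTbk1 replicate 3) and 2 (without siScramble replicate 2 or siTbk1 replicate 2) called lower. In these fits the lone sample of a group is assumed to vary like the others. The log2 fold change of Cdc25a lay between −0.039 and 0.012, and changed sign without siTbk1 replicate 3 (adjusted p = 0.93, edgeR). The cause of these differences was not tested. The 3 count ratios, recomputed without each sample, kept their direction. That was fixed in advance, because the groups did not overlap for any of these ratios.

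The replicate numbers are not tied to a shared culture or day by the labels. With a replicate block, 699 higher and 898 lower calls were made, and 669 and 857 of these stood without it, and the calls of the members did not change. Deviations of same-numbered samples had a Pearson correlation of 0.0041 over all tested genes and of −0.39 over the 7945 genes averaging 4 log2 CPM or more. A crossed pairing, added after seeing the data, gave 648 higher and 872 lower calls. The 2 samples per group limit every comparison, and depth limits Cdk6 and Ccnd1.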
